A study of Mus musculus with 8 samples.

Results

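Endothelial genes were followed in cells sorted for Bapx1-driven EGFP from mouse hindlimbs, on arrays from Bapx1 null and wildtype embryos. The 32 genes were taken by name, through every probe that the platform annotation gives to them (Esam1 and Agtrl1 being the older names of Esam and Aplnr), and were read by 53 of the 45281 probes on the array. Of these genes 25 had a probe that could be tested. Endothelial transcripts were detected in both genotypes, and 18 of the 25 tested genes were highest on the same wildtype array, replicate 2. Mmrn1, which encodes multimerin 1, fell in null cells and was the 1 member of 25 called lower, against 0.439% of all tested probes called lower. None of the 25 was called higher by limma (0.322% of all tested probes), and 3 members, Mmrn1, Angpt2 and Ramp2, had an unadjusted p under 0.05 (11.3% of all tested probes did, so a count of 3 in 25 is no result about the members).

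Endothelial cells line blood and lymphatic vessels. They hold together through VE-cadherin, claudin and immunoglobulin-type adhesion proteins, and their growth and quiescence are set by receptor systems such as the angiopoietins with Tie receptors, apelin with its receptor, adrenomedullin with RAMP2, and BMP ligands with endoglin and ALK1. ETS and SoxF transcription factors switch many of these genes on, and the limb bud is vascularised from early stages, with vessels receding where cartilage condenses.

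The study asked which transcripts depend on the homeobox gene Bapx1 (Nkx3-2) in the hindlimb cells that use its regulatory elements. Hindlimbs of E12.5 embryos of mixed C57BL/6J;129 background were dissected, dissociated and sorted for EGFP, and the RNA of each sorted sample was hybridised to 1 Illumina whole-genome mouse array. Null embryos were homozygous for an allele (tm4.Tlu) in which EGFP stands behind the Bapx1 start codon and part of the coding sequence is gone, with 4 arrays. Wildtype embryos carried 1 copy, as the paper writes the genotype, of an allele (tm2.Tlu) with EGFP behind an internal ribosomal entry site in the 3' untranslated region of Bapx1, also with 4 arrays. Both groups were thus sorted on EGFP and not on an endothelial marker, with a different reporter construct and dose in each, so genotype and reporter cannot be told apart. How many embryos stand behind an array was not stated, so the p-values below cover array-to-array spread only.

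Between 18942 and 20256 probes were detected on a null array and between 18375 and 19861 on a wildtype array, detected meaning a detection p under 0.05. The brightest Bapx1 probe read 9.01, 8.76, 7.97 and 8.19 on the null arrays, against 4.67, 4.54, 4.45 and 4.41 on the wildtype arrays, where it was not detected (log2 fold 3.97 ± 0.22 SE, limma adjusted p = 9.52e-05). A second Bapx1 probe was also called higher in null (log2 fold 3.69 ± 0.20, adjusted p = 9.52e-05). Whether the probes lie inside or outside the replaced part of the gene was not tested, and a probe outside it does not check the genotype, so directions below follow the arrays as labelled null and wildtype. Mesenchymal genes of the hindlimb were present, with Tbx4, Pitx1, Prrx1 and Sox9 detected on all arrays. Of the 10 tested, 0 were called (4 at an unadjusted p under 0.05, against 11.3% of all tested probes). The groups did not overlap for Col2a1, lower in null (log2 fold -0.63 ± 0.15, limma adjusted p = 0.134). Nor did they for Prrx1 and Msx1, higher in null (1.18 ± 0.26 and 1.43 ± 0.47, adjusted p = 0.0994 and 0.29). Over all tested probes 3.74% did not overlap with null lower and 2.55% with null higher. Wildtype replicate 2 did not stand apart over all probes (6.00% of tested probes were highest and 8.61% lowest there). The Y-linked Eif2s3y, looked at after its values were seen, was at 7.86 there, against 11.17 to 11.71 on the null arrays and 10.24 to 10.82 on the other wildtype arrays. Kdm5d, also Y-linked, was at 6.30 there, against 8.79 to 9.50 and 7.89 to 8.61. Both were higher on all null than on all wildtype arrays (2.55% of all tested probes were), without a call (log2 fold 1.47 ± 0.57 and 1.43 ± 0.43, limma adjusted p = 0.375 and 0.247). The part of these differences in the values below was not tested.

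Promoter sequences of 15 members were found in a RefSeq table for GRCm38.p6. The letters AGGAAG, which hold the GGAA core bound by ETS factors, stood on either strand within the 250 bases before a start site of 10 of these 15 genes (66.7%), against 32.3% of the 27025 genes in the table. The letters ACAATG, of the type bound by Sox proteins, stood before 1 of the 15, against 12.2% of all genes in the table. The 2 motifs do not overlap in the windows shown, they were chosen with results of these data known, and a match is a description of letters and not a site. The windows below belong to members described later: Emcn, Robo4, Egfl7 and Cd34 were highest on the same wildtype array, Eng had a small positive fold that did not pass, and Mmrn1 was the gene called. Each is printed 5′ to 3′ with the motif in capitals.
Emcn, chr3:137340975-137341000, plus strand: tggctgccaaAGGAAGagagaggaaa
Robo4, chr9:37401913-37401938, plus strand: agggccaggcAGGAAGcatccgtttc
Egfl7, chr2:26580984-26581009, plus strand: ggagacaaacAGGAAGgccatctctc
Cd34, chr1:194938669-194938694, minus strand: taagtgtggcAGGAAGccactgtgta
Eng, chr2:32646533-32646558, minus strand: aggcgagtagAGGAAGtgccacaggc
Mmrn1, chr6:60944077-60944102, plus strand: cgtgcattgaACAATGtggccttaaa

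Endothelial transcripts were detected on every array. By any probe, 22, 22, 24 and 22 of the 32 members were detected on null replicates 1 to 4, against 24, 26, 24 and 23 on wildtype replicates 1 to 4. The defining markers Pecam1, Cdh5, Tek, Emcn and Cldn5 were detected on all 8 arrays. In all, 29 members were detected on some array, 17 of them on all 8 by the brightest tested probe. The sphingosine 1-phosphate receptor S1pr1, the BMP receptor Acvrl1 (ALK1) and the peptide ligand Apln were detected on none. Tie1, an orphan partner of the angiopoietin receptor, was detected on wildtype replicate 2 alone (5.28, against 4.64 to 4.77 on the null arrays), and so were 3 of the 4 readable probes of the endothelial nitric oxide synthase Nos3 and a dimmer probe of Cdh5. Clec14a, a C-type lectin of vessel sprouts, was detected on wildtype replicate 1 alone. Tie1, Clec14a and Nos3, with Lyve1 and the 3 undetected genes, passed the filter of 4 detected arrays in no probe and were not tested. All values here are normalized log2 intensities, and levels are compared between arrays for 1 probe at a time.

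**Figure D1:**
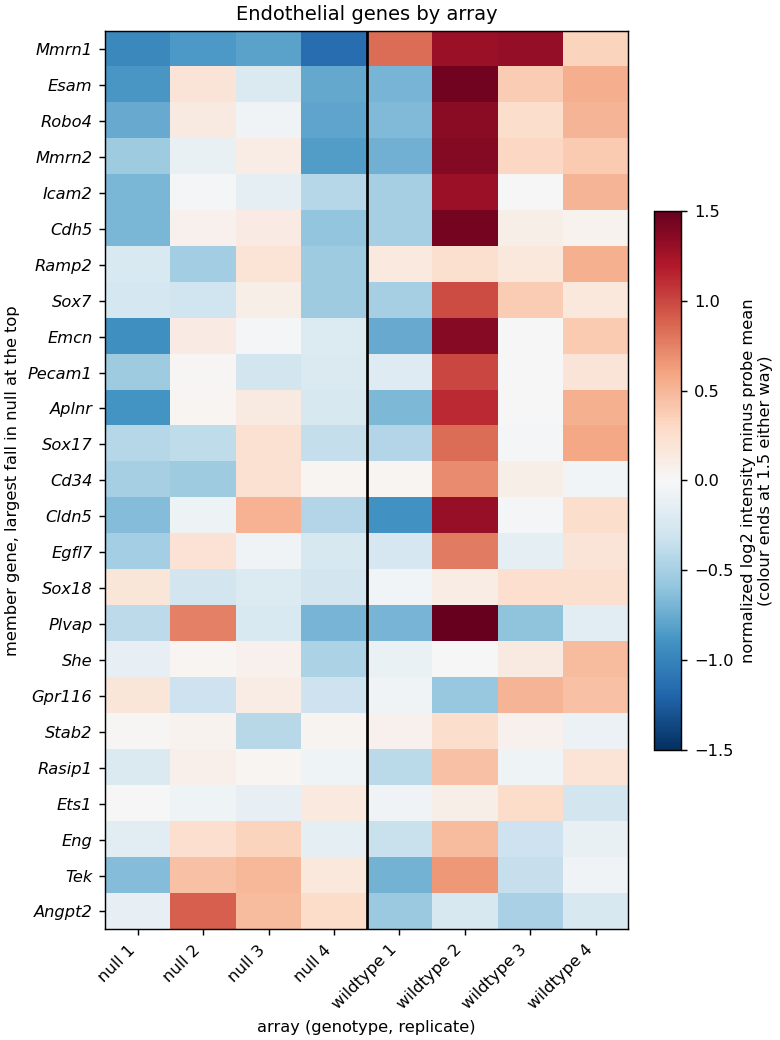
Deviation of each tested endothelial gene from its own mean over 8 arrays (colour, normalized log2 intensity, ends at 1.5 either way), with 1 row per gene by its brightest tested probe and 1 column per array, null arrays left of the line. Wildtype replicate 2 is the reddest column, holding the highest value of 18 of the 25 genes.

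Most members had their highest value on the same array, while correlation between single members was not tested. The median deviation of the 25 genes from their own means was -0.50, 0.03, 0.07 and -0.31 on null replicates 1 to 4, and -0.45, 0.83, 0.07 and 0.24 on wildtype replicates 1 to 4, while the median over all tested probes stayed between -0.02 and 0.04. Wildtype replicate 2 held the highest value of 18 of the 25 genes, against 6.00% of all tested probes that were highest there. The lowest values were spread over null replicate 1, null replicate 4 and wildtype replicate 1, with 7 genes each. The null and wildtype ranges overlapped for 23 of 25 genes, and Pecam1, Cdh5, Esam, Icam2, Cldn5 and Emcn on wildtype replicate 1 were nearer to their level on null replicate 1 than to that on wildtype replicate 2. Fewer endothelial cells and less endothelial RNA per cell cannot be told apart in such bulk samples.

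Between genotypes, 22 of the 25 tested members had a negative log2 fold of null over wildtype and 3 a positive one, with a median of -0.39, against -0.03 over all tested probes, of which 56.3% were negative. Without wildtype replicate 2 the median was -0.22 and 18 of the 25 were negative. Apart from Mmrn1 the folds ran between -0.84 and 0.76, with adjusted p between 0.194 and 0.974 by limma. The median SE of a member's log2 fold was 0.25 (0.14 to 0.58), against 0.16 over all tested probes. The groups did not overlap for 1 member lower in null (3.74% of all tested probes) and for 1 member higher in null (2.55% of all tested probes), which were Mmrn1 and Angpt2.

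**Figure D2:**
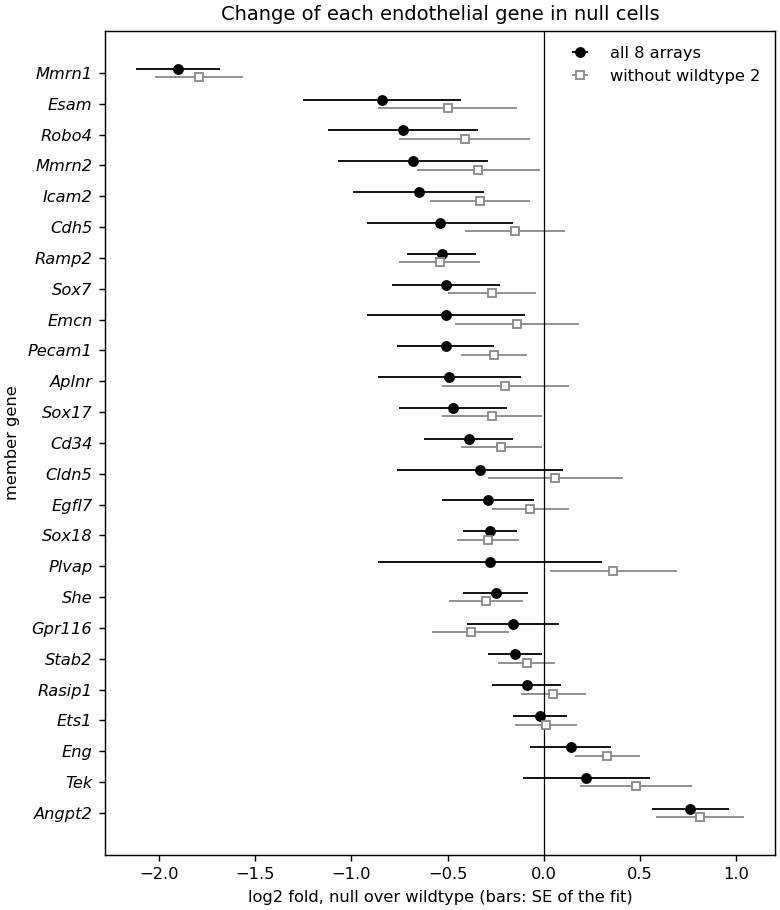
Log2 fold of null over wildtype for each tested endothelial gene, by its brightest tested probe, with the SE of the limma fit as bars, over all 8 arrays (black circles) and without wildtype replicate 2 (open squares). The median is -0.22 without that array and -0.39 with it, while Mmrn1 is at -1.79 and Angpt2 at 0.81 without it.

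Mmrn1 encodes a large soluble glycoprotein that is known from platelet granules as well as from endothelium, lymphatic endothelium above all. It read 4.67, 4.77, 4.83 and 4.49 on the null arrays, none of them above background, against 6.47, 6.93, 6.96 and 5.97 on the wildtype arrays, all above background. The groups did not overlap, and the means were 4.69 ± 0.15 in null cells and 6.59 ± 0.47 in wildtype cells (SD, n = 4 each). The log2 fold was -1.90 ± 0.22 (SE, limma adjusted p = 0.0049), and with the null level known only as a bound the transcript was at least 2.90-fold lower in null cells. That bound sets the wildtype mean against the lowest signal that counted as detected, or the probe's own signal where higher, on each null array. A second Mmrn1 probe was detected on no array.

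The call held with each array left out in turn (limma adjusted p between 0.00173 and 0.0249). In those fits the filter was still that of all 8 arrays, which Mmrn1 met through its 4 wildtype arrays alone. A filter redone without a wildtype array would leave Mmrn1 out. The call was lost in 4 other settings, where the adjusted p lay between 0.0621 and 0.0824. A filter on detection on all arrays leaves the gene out. Platelet and megakaryocyte genes were also lower in null cells. Mmrn1 was lowest on replicate 4 of each group (4.49 in null, at background, and 5.97 in wildtype). The median deviation of the platelet list was -1.59, -0.61, -0.83 and -1.6 on null replicates 1 to 4. On wildtype replicates 1 to 4 that list was at 1.01, 1.27, 1.22 and 1.36. Of 15 platelet and megakaryocyte genes tested, 14 were called lower in null (0.439% of all tested probes were). The groups did not overlap, with null lower, for all 15 (3.74% of all tested probes), and the median log2 fold was -2.40. Their summed normalized intensity on a linear scale was 607 to 1810 on null arrays and 7100 to 8530 on wildtype arrays. Gp6, which is in both counts, was detected on wildtype arrays alone and met the filter only through them. Itgb3 and Clec1b were detected on 1 array each and not tested. Pf4, the abundant platelet chemokine, was detected on all 8 arrays. The part of platelet RNA in the Mmrn1 result was not tested. Mmrn2, the related multimerin of the endothelial surface, had no such split: it ran between 4.77 and 5.72 on null arrays and between 4.88 and 6.98 on wildtype arrays, highest on wildtype replicate 2 (log2 fold -0.68 ± 0.39, adjusted p = 0.563).

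**Figure D3:**
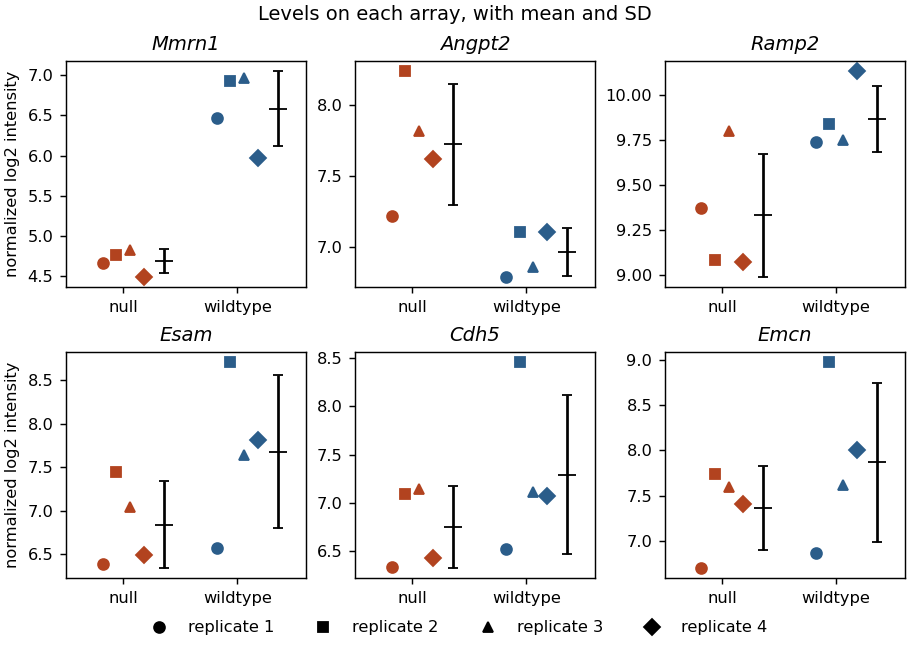
Normalized log2 intensity of 6 endothelial genes on each array, null left of wildtype, with 1 marker shape per replicate number and the mean with its SD (n = 4) as black bars; each panel has its own scale and none starts at 0. The groups separate for Mmrn1 and Angpt2, while for Esam, Cdh5 and Emcn the wildtype group is spread between replicate 1 at its low end and replicate 2 at its high end.

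Angpt2, the angiopoietin that loosens vessels by opposing angiopoietin 1 at its receptor, ran opposite to most members. It read 7.22, 8.24, 7.82 and 7.62 on the null arrays, against 6.79, 7.11, 6.86 and 7.11 on the wildtype arrays. All 4 null arrays lay above all 4 wildtype arrays, with means of 7.72 ± 0.42 in null cells and 6.97 ± 0.17 in wildtype cells (SD, n = 4 each), but the log2 fold of 0.76 ± 0.20 did not pass the adjustment over all probes (limma adjusted p = 0.194). Tek (Tie2), the receptor, read 6.01, 7.10, 7.16 and 6.81 on the null arrays, against 5.95, 7.31, 6.31 and 6.60 on the wildtype arrays. The groups overlapped fully, with replicate 1 the lowest of each (log2 fold 0.22 ± 0.33, adjusted p = 0.844). In this pathway Angpt2 and Tek thus had positive folds that did not pass, and Tie1 was at background on 7 of 8 arrays. The other ligand, Angpt1, was level (log2 fold 0.07 ± 0.32, limma adjusted p = 0.957).

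The junction and adhesion genes were highest on wildtype replicate 2. Cdh5, which encodes VE-cadherin, the main adhesion protein of endothelial junctions, read 6.34, 7.09, 7.14 and 6.43 on the null arrays, against 6.52, 8.46, 7.11 and 7.07 on the wildtype arrays. With replicate 2 aside, the other wildtype arrays lay inside the null range (log2 fold -0.54 ± 0.38 with all arrays and -0.15 ± 0.26 without that array, limma adjusted p = 0.646 and 0.83). Pecam1 (CD31), an immunoglobulin-type adhesion protein, read 5.24, 5.79, 5.50 and 5.55 on the null arrays, against 5.58, 6.78, 5.77 and 5.97 on the wildtype arrays. Only null replicate 2 reached into the wildtype range, and the log2 fold was -0.51 ± 0.25 (adjusted p = 0.488), with -0.57 ± 0.23 by a second probe (limma adjusted p = 0.386).

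Esam, a tight junction protein also found on platelets, had the largest negative fold after Mmrn1. It read 6.39, 7.45, 7.04 and 6.49 on the null arrays, against 6.57, 8.71, 7.64 and 7.81 on the wildtype arrays. Wildtype replicate 1 was lower than null replicates 2 and 3, and the fold of -0.84 ± 0.41 did not pass (limma adjusted p = 0.489). Icam2, a ligand of leukocyte integrins on resting endothelium, read 5.27, 5.93, 5.81 and 5.53 on the null arrays, against 5.46, 7.24, 5.97 and 6.47 on the wildtype arrays, again with wildtype replicate 1 at null level (log2 fold -0.65 ± 0.34, adjusted p = 0.518).

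Cldn5, the claudin of endothelial tight junctions, read 5.30, 5.88, 6.47 and 5.51 on the null arrays, against 5.05, 7.26, 5.94 and 6.22 on the wildtype arrays. The wildtype arrays held both its lowest and its highest value, and its fold of -0.33 ± 0.43 became 0.06 ± 0.35 without wildtype replicate 2 (limma adjusted p = 0.825 and 0.958). Emcn, the sialomucin endomucin of venous and capillary endothelium, read 6.70, 7.74, 7.60 and 7.41 on the null arrays, against 6.86, 8.98, 7.62 and 8.01 on the wildtype arrays, with wildtype replicate 1 the lowest and replicate 2 the highest of its group (log2 fold -0.51 ± 0.41, adjusted p = 0.688). Plvap, which forms the diaphragms of fenestrae, varied most: it ran between 5.63 and 7.09 on null arrays and between 5.63 and 8.35 on wildtype arrays, and its fold of -0.28 ± 0.58 became 0.36 ± 0.33 without wildtype replicate 2 (adjusted p = 0.897 and 0.657).

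Among the receptors, Ramp2 differed most evenly between genotypes. This partner of the calcitonin receptor-like receptor, which makes it bind adrenomedullin, read 9.37, 9.08, 9.80 and 9.07 on the null arrays, against 9.74, 9.84, 9.75 and 10.13 on the wildtype arrays. Null replicate 3 alone reached into the wildtype range, and wildtype replicate 2 was not the highest (log2 fold -0.53 ± 0.18, limma adjusted p = 0.306, and -0.54 ± 0.21 without that array). Robo4, a roundabout receptor that stabilises vessels, read 6.74, 7.63, 7.45 and 6.71 on the null arrays, against 6.84, 8.85, 7.76 and 8.01 on the wildtype arrays. Of its wildtype arrays 3 lay above all null arrays and replicate 1 lay among the lowest (log2 fold -0.73 ± 0.39, adjusted p = 0.534). Aplnr, the apelin receptor, was highest on wildtype replicate 2, between 5.64 and 6.68 on null arrays and between 5.87 and 7.66 on wildtype arrays (log2 fold -0.49 ± 0.37, adjusted p = 0.668), while its ligand Apln was detected nowhere.

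Eng (endoglin), the co-receptor that works with ALK1, read 5.23, 5.65, 5.73 and 5.26 on the null arrays, against 5.06, 5.87, 5.08 and 5.28 on the wildtype arrays. It was close to background, detected on 4 null and 3 wildtype arrays, and its log2 fold was 0.14 ± 0.21 (limma adjusted p = 0.844). Gpr116 (Adgrf5), an adhesion-type G protein-coupled receptor, was the member that had its lowest value on wildtype replicate 2 (4.98, against 5.24 to 5.73 on the null arrays and 5.50 to 6.06 on the other wildtype arrays), with a fold of -0.16 ± 0.24 (adjusted p = 0.85).

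None of the 4 transcription factors was called, and all had negative folds by the brightest tested probe. Sox7, Sox17 and Sox18 form the SoxF group, which acts in arterial and lymphatic specification. Sox18 read 7.74, 7.29, 7.36 and 7.29 on the null arrays, against 7.52, 7.67, 7.81 and 7.80 on the wildtype arrays. Null replicate 1 stood alone within the wildtype range, the other 3 null arrays lay below all wildtype arrays, and wildtype replicate 2 did not stand out (log2 fold -0.28 ± 0.14, limma adjusted p = 0.5).

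The brightest Sox7 probe read 6.04, 6.01, 6.39 and 5.77 on the null arrays, against 5.81, 7.29, 6.69 and 6.46 on the wildtype arrays (log2 fold -0.51 ± 0.28, adjusted p = 0.544). A dimmer tested Sox7 probe read 5.42, 5.34, 5.59 and 5.49 on the null arrays, against 5.20, 5.29, 5.17 and 5.43 on the wildtype arrays (log2 fold 0.19 ± 0.11, adjusted p = 0.575). The probes thus disagreed in sign, and wildtype replicate 2 was not the highest array on the dimmer one. Sox17 was detected on null replicate 3 and on wildtype replicates 2, 3 and 4 by both probes, with folds of -0.47 ± 0.28 and -0.53 ± 0.23 (limma adjusted p = 0.576 and 0.431). Ets1, a founding ETS factor that mesenchyme also expresses, was level: its brightest probe ran between 10.57 and 10.84 on null arrays and between 10.42 and 10.97 on wildtype arrays (log2 fold -0.02 ± 0.14, adjusted p = 0.974).

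Of the secreted and intracellular members, Egfl7, an endothelial matrix protein that guides vessel tube formation, was read by 3 tested probes that agreed in sign, with folds of -0.29 ± 0.24, -0.24 ± 0.18 and -0.21 ± 0.18. The brighter pair was highest on wildtype replicate 2, and none passed (limma adjusted p between 0.675 and 0.704). Cd34, a sialomucin of endothelial and blood progenitor cells, read 4.67, 4.63, 5.39 and 5.19 on the null arrays, against 5.20, 5.87, 5.25 and 5.13 on the wildtype arrays. Null replicates 1 and 2 were at background and the other 2 null arrays lay within the wildtype range (log2 fold -0.39 ± 0.23, adjusted p = 0.562). Rasip1, a Ras-interacting protein needed for vessel lumens, had a fold of -0.09 ± 0.18, and She, an SH2 adaptor, had -0.25 ± 0.17 (adjusted p = 0.897 and 0.624).

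Lyve1 and Stab2, hyaluronan receptors of lymphatic and sinusoidal endothelium, were near background. Lyve1, which some macrophages also carry, read 4.45, 4.52, 5.50 and 6.35 on the null arrays, against 4.78, 4.90, 4.84 and 4.87 on the wildtype arrays, these per-array values being chosen after they were seen. It was detected on null replicates 3 and 4 only and was not tested. Stab2 ran between 4.72 and 5.18 on null arrays and between 5.04 and 5.39 on wildtype arrays (log2 fold -0.15 ± 0.14, limma adjusted p = 0.735).

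Lists of neighbouring genes give the setting of these values. Over all tested probes 0.439% were called lower, 0.322% were called higher and 11.3% had an unadjusted p under 0.05 by limma. Of 7 further endothelial transcripts tested, 0 were called by limma (0 at an unadjusted p under 0.05), the median log2 fold was -0.19, and 5 were highest on wildtype replicate 2, among them Cd93 at 8.34 there, against 6.48 to 7.07 on the null arrays. Of 8 further endothelial transcription factors, 0 were called (2 at an unadjusted p under 0.05) and the median was 0.43, with Ets2 at 0.41 ± 0.11 (adjusted p = 0.197). Of 10 arterial and Notch genes, 0 were called (4 at an unadjusted p under 0.05), the median was -0.06, and the artery connexin Gja4 (-0.88 ± 0.26) and the netrin receptor Unc5b (1.09 ± 0.33) lay at opposite ends (adjusted p = 0.244 and 0.245). The VEGF receptors Kdr and Flt4 were detected on no array by their brightest readable probe, other probes not being looked at. Flt1 was highest on wildtype replicate 2 (7.76, against 5.75 to 6.90 on the null arrays).

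Among 13 tested ligands, receptors and effectors that pair with members, 1 was called lower in null (0.439% of all tested probes) and 0 higher (0.322%). Sphk1, the kinase that makes sphingosine 1-phosphate, the ligand of S1pr1, read 7.59, 7.47, 7.48 and 7.35 on the null arrays, against 8.04, 8.19, 7.94 and 8.29 on the wildtype arrays, with no overlap (log2 fold -0.65 ± 0.12, limma adjusted p = 0.0486). The call was lost with any 1 array left out (adjusted p between 0.0703 and 0.161) and in 6 of 11 other settings (adjusted p between 0.0325 and 1 over the 11, with 0.129 under the replicate block). Sdc2, a syndecan, had a fold of 0.73 ± 0.19 (adjusted p = 0.162). Of 7 VEGF ligands and receptors tested, Vegfd, a ligand of the lymphatic receptor Flt4, fell, with 7.10, 7.14, 7.15 and 7.27 on the null arrays, against 8.05, 8.14, 8.49 and 8.30 on the wildtype arrays (log2 fold -1.08 ± 0.13, adjusted p = 0.0052). That call was lost in 1 of 11 other settings (median absolute deviation scaling, adjusted p = 0.509).

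**Figure D4:**
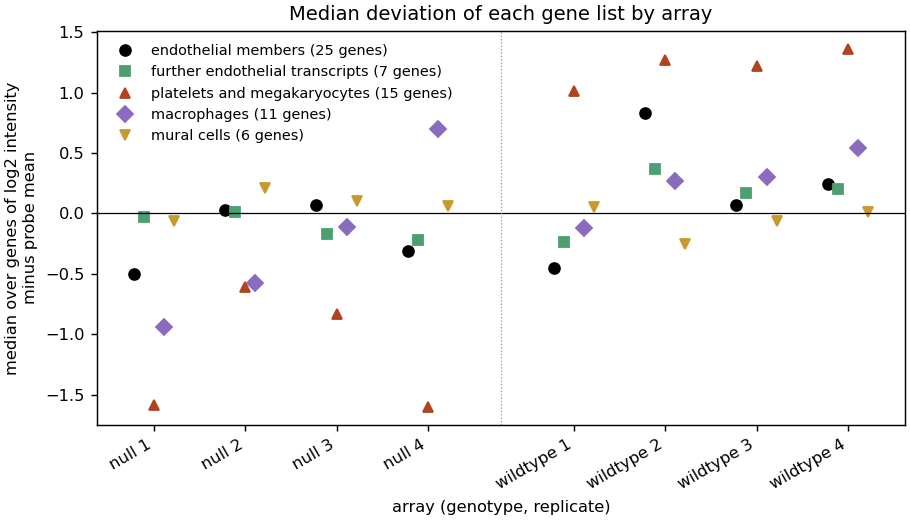
Median over the tested genes of each list of the normalized log2 intensity minus the probe mean, on each array, null arrays left of the dotted line. The platelet list separates the genotypes, the endothelial members peak on wildtype replicate 2 at 0.83, and mural cell genes stay between -0.25 and 0.21.

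Markers of other cells that could ride along in the sort were read on the same arrays. Mural cell genes, which mark pericytes and vessel smooth muscle, were at a median of 0.13 on the log2 scale, 0 of 6 being called by limma (0 at an unadjusted p under 0.05), summed intensities of 1700 to 4430 on null arrays and 1780 to 2180 on wildtype arrays, and a median deviation of -0.25 on wildtype replicate 2, while Tagln and Myh11 were detected on no array. Macrophage genes stood at a median log2 fold of -0.41, close to the -0.39 of the endothelial members, all 11 negative, with 0 of 11 called (0 at an unadjusted p under 0.05), summed intensities of 342 to 1230 on null arrays and 696 to 1150 on wildtype arrays, and median deviations of -0.94, -0.58, -0.11 and 0.70 on null replicates 1 to 4, which put null replicate 4, the array with the highest Lyve1, at the top, while Ptprc and Cd163 were detected on no array. Red cell genes stood at 2.33 with 1 of 9 called higher, the embryonic globin Hbb-bh1 (7 of 9 at an unadjusted p under 0.05 and 6 of 9 higher in null without overlap), and summed intensities of 5470 to 42300 on null arrays and 2500 to 4440 on wildtype arrays. Over all tested probes 0.322% were called higher, 11.3% had an unadjusted p under 0.05 and 2.55% were higher in null without overlap. The part of each of these in the endothelial values was not tested.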

How the data were processed

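The deposited intensities are background-subtracted probe signals that the authors took from GenomeStudio (no version stated), not normalized between arrays, 1 array per sample. A deposited score per value ran between 0 and 1, highest for bright probes, and 1 minus this score served as detection p. A deposited table of log2 values, made by the authors from these intensities by a median shift and a constant per probe, whose origin is unknown, named the probes: 35454 of its 45281 rows matched 1 intensity row within 0.0001. Of the 53 member probes 45 matched 1 row; the other 8 matched rows at or below 1.8 with no detection. Symbols came from the platform annotation, updated through RefSeq gene numbers.

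Intensities were background corrected by normexp on negative controls inferred from the detection p, with 16 added as offset, followed by quantile normalization and log2 (neqc, limma 3.58.1, R 4.3.3). The 19568 probes detected (p under 0.05) on 4 or more arrays were tested by limma's lmFit and eBayes (two-sided, without covariates), with Benjamini-Hochberg adjustment over all of them and calls at an adjusted p under 0.05. A gene stands by its brightest tested probe. Outside the members, a gene without a tested probe stands by its brightest probe matched to 1 row. Detection of a gene outside the members refers to that 1 probe. Folds are null over wildtype. Intensities below 1 made up 30.9% to 34.3% of an array, and the number of arrays limits the precision. The steps were tested on simulated data.

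The members and gene lists were chosen with earlier results of these data known, so lists are described by counts and medians. All 8 arrays are printed for called members, the 10 smallest p, the 3 largest changes each way, 5 defining markers and members whose probes disagreed in sign by over 0.5. Of other lists, called genes and up to 3 by smallest p are named, except that of the 14 called platelet genes only Pf4 and Gp6 are. Others named there (Angpt1, Pf4, Gp6, Itgb3, Clec1b, Flt1, Kdr, Flt4, Tbx4, Pitx1, Sox9, Tagln, Myh11, Ptprc, Cd163, Eif2s3y and Kdm5d) were chosen after their values were seen. Alternatives covered background, scaling, filter, offset, array weights, the methods' t-test, the replicate block and each array left out.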

Additional observations from a re-analysis of the deposited data

Results flagged for a closer look

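Within single groups of 4 arrays, 4 of the 50 sets of values (25 genes in 2 groups) had 1 array far from the other 3 by Dixon's criterion, against 2.50 that chance gives at about 1 in 20. Sox18 read 7.74 on null replicate 1, with the next null array at 7.36. Sox17 read 5.60 on null replicate 3, with the next at 5.02. Stab2 read 4.72 on null replicate 3, with the next at 5.15. Cd34 read 5.87 on wildtype replicate 2, with the next at 5.25. Wildtype replicate 2, the highest array for 18 of 25 members, was thus far enough from its group to meet this criterion for 1 gene only.

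Signal above background also appeared in member probes that the comparison did not use. A dimmer Robo4 probe was detected on null replicates 1 and 4 and on no wildtype array, with 5.44 on null replicate 4, while the bright Robo4 probe was lowest on that array. Lyve1 reached 6.35 on null replicate 4 and was detected on no wildtype array.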

How the results depend on the processing

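The count of members called lower was 1 and became 0 with the deposited log2 table (Mmrn1 adjusted p = 0.0621), with intensities floored at 1 and quantile normalized (0.0824), with median absolute deviation scaling (0.0643) and with the methods' t-test (0.0655), all by Benjamini-Hochberg, and also 0 when detection on all arrays was required, which leaves Mmrn1 out and 17 members in. No member was called higher under any alternative run. The median log2 fold of the members ran between -0.64 and -0.27 over the settings that kept all arrays, and between -0.58 and -0.22 with 1 array left out, where -0.22 is the value without wildtype replicate 2. A shift alone in place of quantile scaling moved the median of all tested probes to -0.14, with the members at -0.42. With the replicate block the median was -0.39 and the count 1 (Mmrn1 limma adjusted p = 0.0144), and the block changed no member's call. Adjusted p of other members moved both ways under it (Esam from 0.489 to 0.191, Ramp2 from 0.306 to 0.326). Same-numbered arrays correlated at 0.074, 0.457, 0.256 and -0.313 in their deviations from group means. Null replicates 1 and 2 matched the same-numbered wildtype array best, and null replicates 3 and 4 another. Deviations within a group depend on each other, so these correlations cannot settle whether the numbers pair the samples.

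Over all single genes followed (the tested members, Sphk1 and Vegfd), 500 of 526 alternatives kept direction and side of the threshold, 19 lost a call and 7 reversed. Only the called Mmrn1, Sphk1 and Vegfd could lose a call. They lost it in 0, 8 and 0 of 8 fits with 1 array left out, and in 4, 6 and 1 of 11 other settings. For Mmrn1 those 8 fits kept the filter of all arrays, which it met through its wildtype arrays alone. A filter redone without a wildtype array, or on detection on all arrays, would leave it out. For genes not called, the same sign without a call counted as kept. Ets1 turned to 0.12 with median absolute deviation scaling. With 1 array left out, Ets1 ran between -0.11 and 0.07, Cldn5 between -0.67 and 0.06, Plvap between -0.58 and 0.36 and Rasip1 between -0.23 and 0.05. Signal over background limits Mmrn1, Mmrn2, Gpr116, She, Tie1, Nos3, Lyve1, Clec14a, Sox17, Cd34, Eng and Stab2, which were detected on only some arrays, so a fold there is compressed by the offset. The cause of the differences between settings was not tested.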
